A study of Anopheles merus and Anopheles coluzzii with 36 samples.

Results

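The genes described here are 3 heat shock protein 70 genes of malaria mosquitoes, AGAP004581, AGAP004582 and AGAP004583, named as clustered, stress-inducible copies. They were taken by identifier from a table of 10905 genes, and all 3 were measured. They were chosen by their change in CPM at 50% of seawater against 0%, so every comparison with the 0% or 50% libraries is given as a description with no test. The table pairs its identifiers with no gene names. The name HSP70 and the clustering are background annotation that was not checked here.

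RNA came from pools of 35 to 50 whole larvae of Anopheles merus, whose larvae tolerate a wide range of salinity, and of Anopheles coluzzii, a fresh-water breeder. All larvae grew in fresh water up to 18 h after hatching and then spent 6 h at 0 (fresh water), 10, 20, 30, 40 or 50% of the salinity of seawater. Each of the 12 groups had 3 pools, which makes 36 libraries. Nothing in the labels says that the pools of a group were separate cultures, and p-values therefore measure the spread between pools, which may be technical.

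HSP70 proteins are ATP-driven chaperones that bind unfolded stretches of other proteins, keep them from clumping and help them to refold. Cells carry constitutive forms for everyday folding and inducible forms whose genes are nearly silent at rest and are switched on by the heat shock transcription factor when damaged proteins build up. In Drosophila melanogaster the inducible genes lie in clusters of near-identical, intronless copies, and their transcripts are a standard sign of protein damage by heat and other stress.

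The An. merus libraries held 9174563 to 24092192 reads, and those of An. coluzzii 15369828 to 24835904. Levels are in CPM, which are read counts divided by library size after the authors' TMM scaling. A count of 0 allows up to 3 reads, or 0.114 to 0.348 CPM depending on the library, which covers counting error only. All replicate pairs differed by more than sampling noise. In pools of whole larvae, fewer cells with a transcript and less transcript per cell cannot be told apart.

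At 0, 10 and 20% all 3 genes were close to silent in both species. In An. merus pools A, B and C AGAP004581 measured 1.51, 1.62 and 2.80 CPM at 0%, then 2.02, 2.50 and 2.06 CPM at 10%, and 2.45, 1.28 and 1.57 CPM at 20%. In An. coluzzii it measured 0.297, 0.801 and 2.10 CPM at 0% (pools A, B and D), then 2.24, 1.21 and 2.22 CPM at 10%, followed by 2.77, 1.44 and 2.34 CPM at 20% (pools A, B and C). These 6 groups overlapped one another from end to end in the order of their means, and the reads behind a value numbered 6 to 70.

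AGAP004583 was as low. In the same pools of An. merus it measured 1.62, 0.623 and 1.88 CPM at 0%, then 1.35, 1.16 and 1.56 CPM at 10%, and 1.36, 0.514 and 0.786 CPM at 20%. In An. coluzzii it measured 0.494, 0.848 and 1.64 CPM at 0%, then 1.33, 0.717 and 1.39 CPM at 10%, and 2.22, 0.566 and 2.06 CPM at 20%. AGAP004582 lay near the floor, with 0 to 11 reads in any of these 18 libraries. Its group means ran from 0.178 ± 0.0566 CPM at 10% to 0.373 ± 0.218 CPM at 0% in An. merus (SD, n = 3), and from 0.168 ± 0.214 CPM at 0% to 0.194 ± 0.198 CPM at 20% in An. coluzzii (SD, n = 3). It had no read in An. coluzzii pool A at 0%, where the floor is 0.148 CPM, or pool B at 20%, where the floor is 0.131 CPM.

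**Figure D1:**
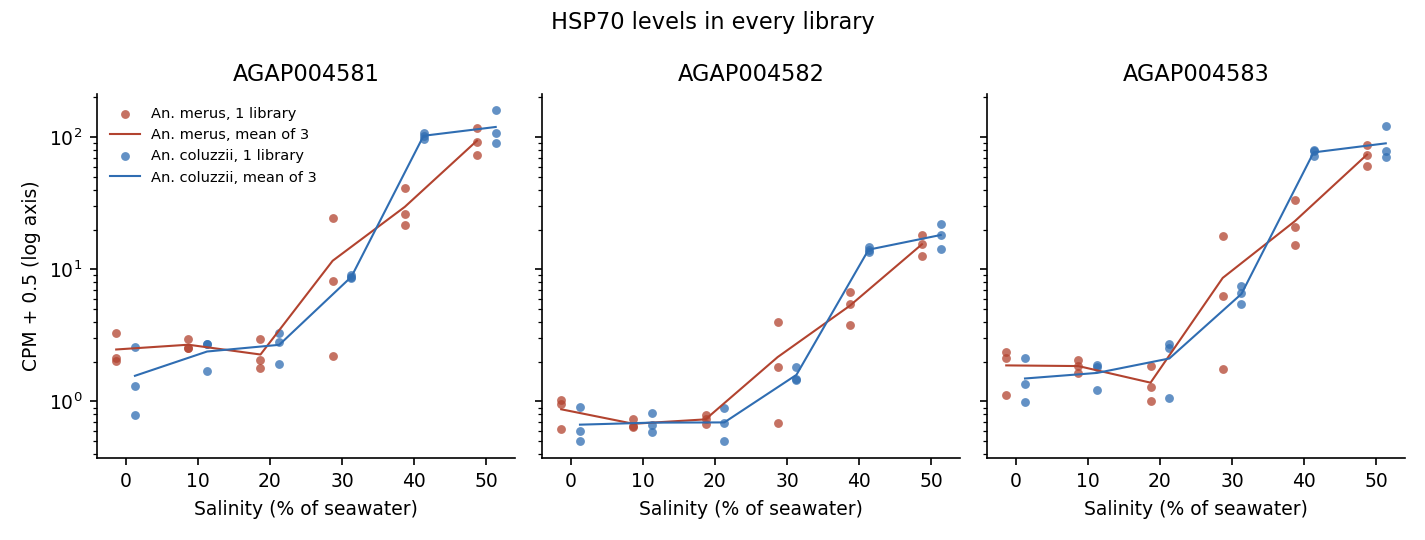
CPM + 0.5 on a log axis against salinity for each HSP70 gene, with 1 point a library (An. merus left of An. coluzzii at each salinity) and lines through the means of 3 libraries. Levels are low up to 20%, the An. merus pools at 30% stand far apart, and the An. coluzzii pools at 40% lie close to those at 50%.

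At 30% the pools of An. merus lay further apart than those of An. coluzzii, a difference in spread that was not tested. The An. merus pools spread widely, with AGAP004581 at 7.62, 1.71 and 24.02 CPM in pools A, B and C. Pool B was still at the level of the low salinities, and pool C reached the level of An. merus at 40%. AGAP004582 (1.32, 0.190 and 3.50 CPM) and AGAP004583 (5.84, 1.25 and 17.25 CPM) had the same order of pools. The 3 An. coluzzii pools were close together, with AGAP004581 at 8.12, 8.52 and 8.24 CPM, AGAP004582 at 1.34, 0.961 and 0.973 CPM and AGAP004583 at 6.13, 4.99 and 6.94 CPM. An. merus pool A was near these values. The standard deviation of log2 values among the An. merus pools was 1.74, 1.27 and 1.67 for AGAP004581, AGAP004582 and AGAP004583, which rank 5, 24 and 9 among 8759 genes (those with a mean of at least 5 CPM, and the HSP70 genes). The median gene had 0.121. Wide spread was not confined to An. merus. In An. coluzzii AGAP004581 had 0.857 at 0% (rank 157) and AGAP004583 had 0.756 at 20% (rank 62), on few reads. In An. coluzzii at 40% AGAP004581, AGAP004582 and AGAP004583 had 0.0757, 0.0615 and 0.0787. Pool B was the deepest of the 3 with 24092192 reads and pool C the shallowest with 12112578, against 20044501 in pool A, and the part of depth in this spread was not tested.

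The position of each 30% pool on the way to 40% was also measured. Over the 2106 other genes called at 40% against 10% in An. merus, pools A, B and C at 30% had made a median of 50.6, 40.3 and 47.2% of the change seen at 40% (log2 scale). The HSP70 genes had made 48.4, -3.13 and 90.8% of theirs. In An. coluzzii the 3 pools at 30% had made 53.4, 50.2 and 55.9% of the change of 6901 other genes, and 34.6, 30.8 and 33.3% of that of HSP70. The HSP70 share was thus below the median of the other genes in all 3 An. coluzzii pools. In An. merus it lay below, near or above that median depending on the pool. The share divides by the change at 40%, which for HSP70 was among the largest of all genes, so it is no measure of timing. A median over so many genes says nothing of how single genes spread. This measure was added after the data were seen and has no test.

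**Figure D2:**
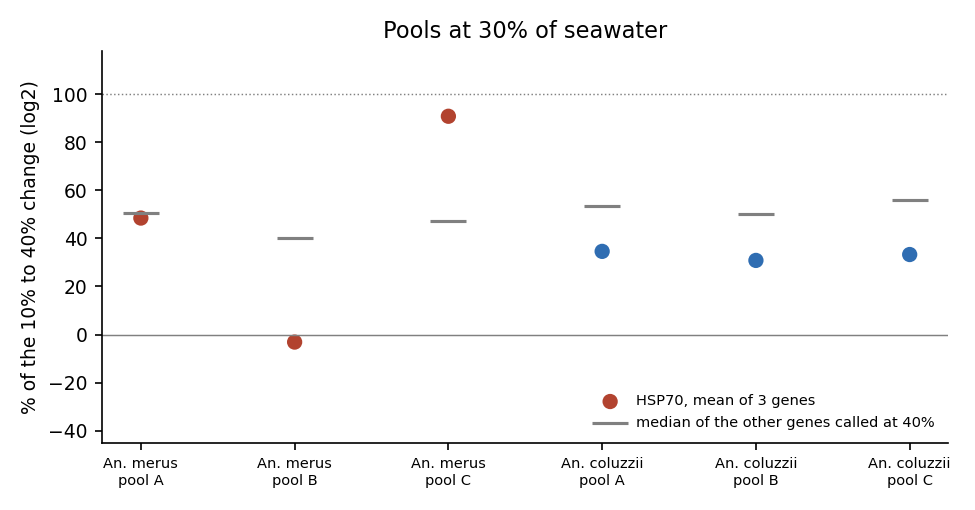
Position of each 30% pool between its species' 10% mean (0) and 40% mean (100) on the log2 scale, as the mean of the 3 HSP70 genes (dots) and as the median of the other genes called at 40% against 10% (bars). The An. merus dots run from -3.13 to 90.8% while the bars lie between 40.3 and 50.6%.

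At 40% the levels separated by species. AGAP004581 stood at 25.9, 40.5 and 21.2 CPM in An. merus pools A, B and C, and at 107, 96.7 and 102 CPM in An. coluzzii pools B, C and D. AGAP004583 stood at 20.3, 33.0 and 14.7 CPM in An. merus and at 77.7, 79.5 and 71.6 CPM in An. coluzzii. AGAP004582 stood at 4.92, 6.23 and 3.26 CPM in An. merus and at 13.5, 14.25 and 13.1 CPM in An. coluzzii. For all 3 genes every An. merus pool was below every An. coluzzii pool, as it was for 37% of all genes at this salinity. Summed over the 3 copies, An. merus had 56.7 ± 20.9 CPM, against 192 ± 6.09 CPM for An. coluzzii (SD, n = 3 each). The sum does not depend on how reads were divided among the copies. It does depend on whether reads that fit several copies were counted at all, which is not known. Whether reads of both species were counted equally well was not tested, at this or any other salinity. Genes with no read numbered 71 to 138 in the An. merus libraries and 23 to 41 in those of An. coluzzii.

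At 50% the species met again. AGAP004581 measured 91.0, 117 and 72.9 CPM in An. merus, against 106, 160 and 90.7 CPM in An. coluzzii. AGAP004583 measured 72.8, 87.05 and 60.3 CPM in An. merus, against 77.8, 120 and 70.1 CPM in An. coluzzii, and AGAP004582 measured 15.1, 17.8 and 12.02 CPM in An. merus, against 17.7, 21.6 and 13.8 CPM in An. coluzzii. The ranges of the species overlapped for each gene. Summed, An. merus had 182 ± 38.3 CPM, against 226 ± 67.0 CPM for An. coluzzii (SD, n = 3 each).

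These 50% sums were 48.9 times the 3.72 ± 1.42 CPM of An. merus at 0%, and 102 times the 2.23 ± 1.73 CPM of An. coluzzii at 0% (SD, n = 3 each). With 1 library left out, the first ratio ran from 41.3 (without An. merus pool B at 0%) to 61.0 (without pool C at 0%). The second ran from 76.8 (without An. coluzzii pool A at 0%) to 178.5 (without pool D at 0%). No 50% pool overlapped the 0% pools of its species for any of the 3 genes, and 30.9% of all genes in An. merus and 31.6% for An. coluzzii likewise lay higher without overlap. Because this contrast chose the genes, nothing is read from that count. For AGAP004582 the change on the log2(CPM + 0.5) scale was 4.17 ± 0.36 in An. merus, and 4.79 ± 0.36 for An. coluzzii (SE). Of 10905 changes ordered from the most positive, those of AGAP004581, AGAP004582 and AGAP004583 ranked 4, 6 and 3 in An. merus and 1, 6 and 2 in An. coluzzii. The same contrast chose the genes, so nothing is read from these ranks either.

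The last step divided the species. In An. merus the summed level at 40% was 31.1% of that at 50%, and in An. coluzzii it was 84.9%. At 50% against 40% AGAP004581 differed by 1.69 ± 0.48 in An. merus, against 0.18 ± 0.48 for An. coluzzii (log2, SE). For AGAP004583 the values were 1.74 ± 0.49 in An. merus and 0.19 ± 0.49 for An. coluzzii. The An. merus pools at 50% lay above those at 40% for all 3 genes, as they did for 26.6% of all genes. The An. coluzzii pools at the 2 salinities overlapped for all 3. The An. merus level at 50% was close to that of An. coluzzii at 40% (94.8% of it for the sum), with overlapping pools. These comparisons use the 50% libraries and were not tested.

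Across the 12 groups the upper 6 had nearly the same order for the 3 genes. The 6 groups at 0 to 20% came lowest, in an order that differed between the genes, and each overlapped its neighbours. An. coluzzii at 30% came next and did not overlap the group directly under it, which was An. merus at 10% for AGAP004581, An. merus at 0% for AGAP004582 and An. coluzzii at 20% for AGAP004583. Of all genes 32.7, 32.4 and 21% lay higher without overlap in these comparisons, in the same order. It was followed by An. merus at 30% and An. merus at 40%, which overlapped their lower neighbours. The 3 highest groups were An. merus at 50% and An. coluzzii at 40 and 50%, which overlapped one another. The group directly above An. merus at 40% did not overlap it for any of the 3 genes, and the shares of all genes for both pairs in question (26.6 and 37%) are those given above. For AGAP004582 An. coluzzii at 40% came just under An. merus at 50%, and for the other two genes just above it.

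Tests were made among the libraries at 10 to 40% alone, although the spread was estimated over all 36 libraries. The change in CPM given as the reason for choosing the genes did not use these libraries. The genes and comparisons were still chosen with earlier results of these data known. The p-values and ranks below therefore cannot be taken as independent of that choice. Values were compared as log2(CPM + 0.5) by limma in 1 model of 12 group means, with Benjamini-Hochberg adjustment over 10905 genes and a threshold of 0.05. No difference between 20 and 10% was detected in either species. In An. merus 0 of the 3 genes passed at 20% against 10% (adjusted p = 1 for each), as did 0% of all genes, and 0 passed with edgeR or DESeq2 and at an unadjusted p under 0.05. In An. coluzzii 0 of the 3 passed, against 1.05% of all genes, and again 0 with edgeR or DESeq2 and at an unadjusted p under 0.05. The 95% intervals of AGAP004581 allow a change of 0.418 to 1.63-fold in An. merus, and 0.568 to 2.22-fold for An. coluzzii, on this scale.

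At 30% against 10% all 3 genes passed in An. coluzzii and none in An. merus. For An. merus the log2 changes of AGAP004583, AGAP004581 and AGAP004582 were 1.66 ± 0.49, 1.503 ± 0.48 and 1.34 ± 0.36 (SE; limma adjusted p = 0.10, 0.15 and 0.064), and the unadjusted p was under 0.05 for all 3. In that comparison 1.03% of all genes were called. These SEs use 1 spread per gene shared by all 12 groups. For AGAP004581 the log2 SD between pools was 1.74 in An. merus at 30% and 0.139 at 10%, and 0.0335 in An. coluzzii at 30%. The SEs and p-values therefore understate the error of comparisons with An. merus at 30%. They overstate it where the pools of both groups were closer together. The An. merus values rest on single pools. Without pool B at 30% the changes of AGAP004583, AGAP004581 and AGAP004582 were 2.52, 2.40 and 1.995 and all 3 passed. Without pool C at 30% they were 0.85, 0.66 and 0.73 and none passed (limma adjusted p = 0.68, 0.83 and 0.53). On all pools 2 genes passed with edgeR and 3 with DESeq2. In An. coluzzii AGAP004583 rose by 2.003 ± 0.49, AGAP004581 by 1.91 ± 0.48 and AGAP004582 by 1.21 ± 0.36 (SE; limma adjusted p = 0.0014, 0.0019 and 0.0075), among 19.9% of all genes called higher. Every 30% pool lay above the 10% pools, as in 28.6% of all genes. The change of AGAP004582 in An. coluzzii was 0.49 with a pseudocount of 2, 2.09 with one of 0.1, 2.51 with edgeR and 2.53 with DESeq2, and passed in each. With library totals in place of TMM the median of all genes moved by -0.15 in An. coluzzii, and all 3 stayed called. The difference between the species' responses at 30% was -0.35 ± 0.69, -0.41 ± 0.68 and 0.13 ± 0.51 (SE, An. merus minus An. coluzzii), and 0 of 3 genes passed (limma adjusted p = 0.79, 0.74 and 0.90), with 0 also by edgeR and DESeq2 and at an unadjusted p under 0.05, against 16.7% of all genes. For AGAP004581 the 95% interval runs from -1.80 to 0.98, which includes differences of either sign.

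**Figure D3:**
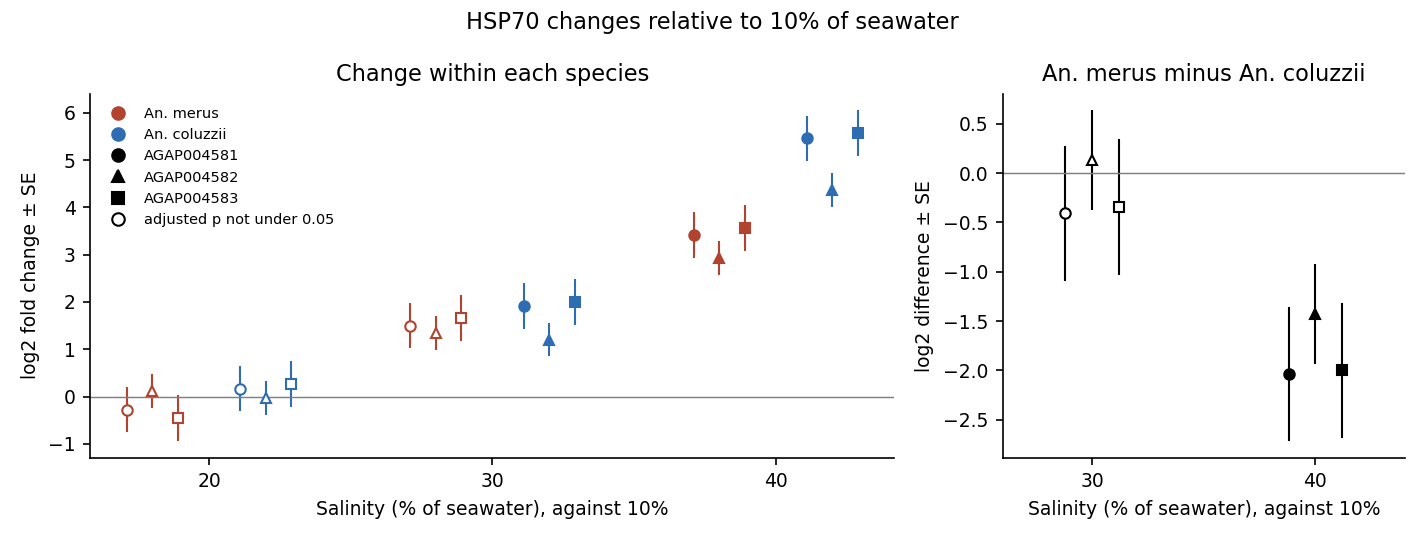
Log2 fold change of each HSP70 gene against 10% in An. merus and An. coluzzii (left panel), and the difference between these responses, An. merus minus An. coluzzii (right panel), with SE bars. Filled symbols passed the threshold: 3 genes at 40% in An. merus, 3 at 30 and 40% in An. coluzzii, and 3 for the difference at 40%.

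At 40% against 10% all 3 genes rose in both species. On the log2 scale An. merus AGAP004583 rose by 3.57 ± 0.49, AGAP004581 by 3.42 ± 0.48 and AGAP004582 by 2.93 ± 0.36 (SE; limma adjusted p = 6.7e-06, 1.0e-05 and 2.0e-06), among 8.31% of all genes called higher. They ranked 1, 2 and 6 of 10905 in that direction, and their median of 3.42 stood beside a median of -0.01 over all genes. In An. coluzzii they rose by 5.57 ± 0.49, 5.46 ± 0.48 and 4.36 ± 0.36 (SE; limma adjusted p = 1.1e-10, 1.3e-10 and 3.1e-11), among 29.8% called higher, with ranks of 1, 2 and 13 and a median of 5.46 beside -0.03 over all genes. All 40% pools lay above all 10% pools of their species, as in 14% of all genes in An. merus and 36% for An. coluzzii. With library totals as the scaling the median of all genes moved by -0.27 in An. coluzzii, and the 3 stayed called in both species. The value of AGAP004582 depends on the 0.5 CPM added, since it had only 2 to 6 reads a library at 10%. For An. merus the change of AGAP004582 was 1.62 with a pseudocount of 2, 4.11 with one of 0.1 and 4.675 with edgeR on the recovered reads. For An. coluzzii it was 2.83, 5.63 and 6.13 under the same settings, and it passed in each.

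**Figure D4:**
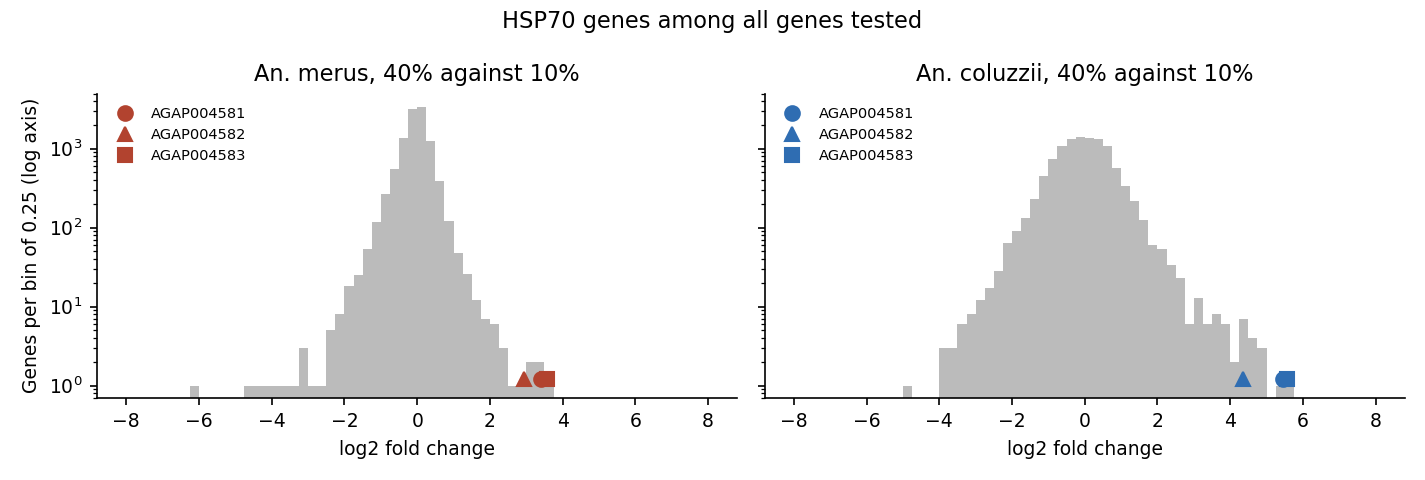
Distribution of the log2 fold changes of all 10905 genes at 40% against 10% (gray, log axis) in An. merus (left) and An. coluzzii (right), with the HSP70 genes marked. In both species AGAP004581 and AGAP004583 hold the 2 most positive values.

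At 40% against 30% the 3 genes passed in both species, with weaker support in An. merus. There AGAP004583, AGAP004581 and AGAP004582 rose by 1.92 ± 0.49, 1.91 ± 0.48 and 1.59 ± 0.36 (SE; limma adjusted p = 0.034, 0.032 and 0.016), among 0.77% of genes called higher. None of the 3 passed with a pseudocount of 0.1, with An. merus fitted alone, with edgeR, with DESeq2, without pool B at 30% (changes of 1.05, 1.02 and 0.94) or without pool B at 40%. A single gene passed without pool A at 30%, pool A at 40% or pool C at 40%, and all 3 passed without pool C at 30% (2.72, 2.76 and 2.20). The pools also overlapped for all 3 genes: for AGAP004581, pool C had 21.2 CPM at 40%, under the 24.02 CPM of pool C at 30%. In An. coluzzii the same genes rose by 3.57 ± 0.49, 3.54 ± 0.48 and 3.15 ± 0.36 (SE; limma adjusted p = 1.2e-06, 1.1e-06 and 5.7e-08), among 18.9% called higher. The summed An. coluzzii level at 40% was 12.5 times that at 30%.

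The response at 40% was smaller in An. merus. AGAP004581, AGAP004583 and AGAP004582 differed by -2.04 ± 0.68, -1.999 ± 0.69 and -1.43 ± 0.51 on the log2 scale (SE, An. merus minus An. coluzzii; limma adjusted p = 0.017, 0.020 and 0.024). Of all genes 20.1% were called in this direction, so the HSP70 genes are not set apart by the call. The 95% interval for AGAP004581 is -3.43 to -0.65, a response between 0.0929 and 0.639 times that of An. coluzzii. With library totals the median of all genes moved by 0.28 in this comparison, and AGAP004582 then missed the threshold (-1.17, limma adjusted p = 0.059). AGAP004582 also missed it with a pseudocount of 0.1, edgeR and DESeq2, and AGAP004583 with edgeR (adjusted p = 0.067). AGAP004581 alone passed without An. merus pool C at 40% or An. coluzzii pool B at 10%. AGAP004581 passed in all 23 alternatives, with adjusted p from 0.0044 to 0.049.

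The proportions of reads among the copies could be read well only where the genes were high. In the 16 libraries with at least 20 reads of each gene, all at 30 to 50%, AGAP004583 had 58.6 to 82.7% of the reads of AGAP004581 (median 75.3%), and AGAP004582 had 11.3 to 19.0% (median 15.3%). At 40 and 50% AGAP004582 had 16.4 ± 1.42% in An. merus and 14.2 ± 1.57% in An. coluzzii, and AGAP004583 had 77.7 ± 5.04% in An. merus and 75.1 ± 4.27% in An. coluzzii (SD, n = 6 libraries each). The ranges of the species overlapped. With the reads of the 9 libraries at 0 to 20% pooled, AGAP004582 had 13.0% in An. merus and 10.7% in An. coluzzii, and AGAP004583 had 59.3% in An. merus and 73.3% in An. coluzzii. AGAP004581 then had 278 reads in An. merus and 326 reads in An. coluzzii. At 30 to 50% the pooled shares of AGAP004583 were 77.8% in An. merus and 74.5% in An. coluzzii, so its An. merus share was higher there than at 0 to 20%, a difference that was not tested. Gene lengths were not at hand, so these are shares of reads and not an order of transcript levels. How the authors' counting treated reads that fit more than 1 copy was not stated in the labels or the table, so the 3 are uncertain as separate measurements. Over 36 libraries the log2 values of each pair of the 3 correlated at 0.990 to 0.994, as a description, since they share libraries and possibly reads.

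**Figure D5:**
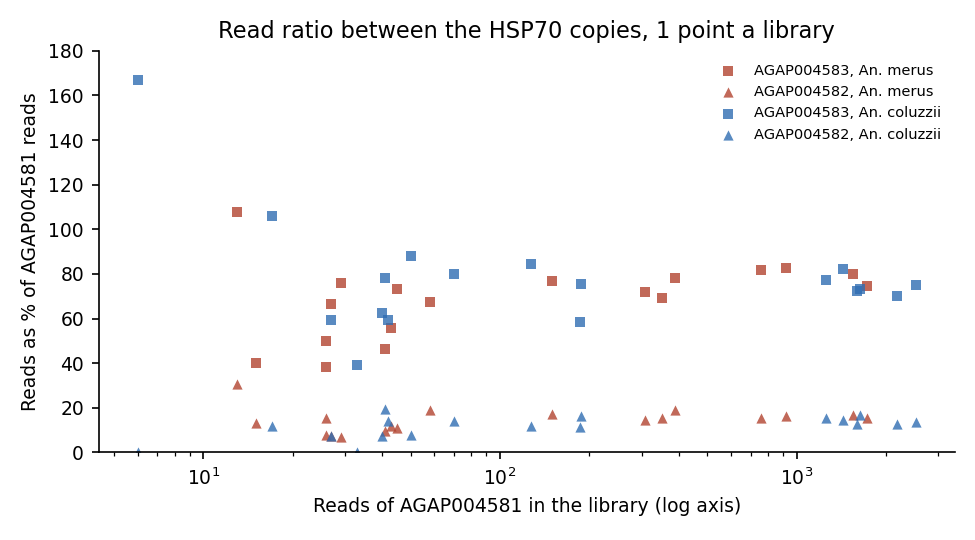
Reads of AGAP004583 (squares) and AGAP004582 (triangles) as a percentage of AGAP004581 reads in each of 36 libraries, against the reads of AGAP004581 (log axis). The points scatter where AGAP004581 has under 100 reads and keep to 58.6 to 84.3% and 11.3 to 19.0% above that.

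Of the 10 identifiers numbered next to the 3 genes, 5 on either side, 8 were measured. At 40% against 10% in An. merus 1 was called higher (AGAP004584) and 0 lower, with changes of -0.54 to 0.33, while 8.31% of all genes were called higher and 11% lower. In An. coluzzii 1 was called higher (AGAP004577) and 5 lower (AGAP004579, AGAP004580, AGAP004586, AGAP004587 and AGAP004588), with changes of -1.48 to 0.66 on the log2 scale, while 29.8% of all genes were called higher and 33.5% lower. Whether they lie next to HSP70 in the genome was not analysed here, and those called are named after their values were seen.

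Among 8756 other genes with a mean of at least 5 CPM, the 2 whose log2 values most resembled the mean of the HSP70 genes over 36 libraries were AGAP011749 (Pearson's r 0.94 in all, 0.89 in An. merus and 0.98 in An. coluzzii) and AGAP006254 (0.94, 0.93 and 0.96). The libraries share depth, species and salinity, so r is a description. AGAP011749 changed far less, with An. merus means of 55.3 ± 6.91, 85.7 ± 10.9 and 191 ± 23.0 CPM at 0, 40 and 50%, against 52.5 ± 5.09, 154 ± 6.03 and 185 ± 17.8 CPM in An. coluzzii (SD, n = 3). In An. merus AGAP011749 measured 61.9 ± 5.37 CPM at 10% and 68.1 ± 4.61 CPM at 30% (SD, n = 3). It had changed little by 30%, so its narrow spread there cannot be set against that of HSP70. The most opposed were AGAP027998 (r -0.94) and AGAP011508 (r -0.94). AGAP027998 had An. merus means of 26.4 ± 1.12, 12.2 ± 1.59 and 4.65 ± 0.407 CPM at 0, 40 and 50%, against 31.1 ± 9.74, 4.40 ± 0.833 and 6.94 ± 1.92 CPM in An. coluzzii (SD, n = 3), where the 50% mean was above the 40% mean. In all, 27 genes had an r above 0.9.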

How the data were processed

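The authors' deposited table holds 1 normalized signal per gene and library, CPM with TMM scaling. The file's name says that it was filtered and freed of ribosomal RNA. Per the labels, libraries were poly(A)-selected. The submitters' processing notes name edgeR, HTSeq, TopHat2, Bowtie2 and Trimmomatic, and give no versions; the build, annotation and filter threshold were not stated. TMM takes most genes as unchanged, so levels are relative to the bulk of genes. All values were whole multiples of the worth of 1 read within 0.001 in all 36 libraries, and these multiples served as read counts. The column of An. coluzzii pool C at 50% is named for 1 of its 5 lane parts in the labels, and whether it holds the other parts is not known.

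Log2(CPM + 0.5) was tested with limma 3.58.1 (R 4.3.3) in a model of 12 group means over 36 libraries, with trended empirical Bayes variances, two-sided and unpaired, with Benjamini-Hochberg adjustment over 10905 genes. On the recovered reads the same comparisons were run with edgeR 4.0.16 (quasi-likelihood) and DESeq2 1.42.0 as alternatives. Other alternatives were pseudocounts of 0.1 and 2, quantile normalization, library totals, a minimum mean of 5 CPM, DESeq2 size factors (added after the data were seen), robust variances, a block for the replicate letter, fewer libraries in the fit and each library left out (for the ratio of 50% to 0% sums, added after the data were seen). The genes and comparisons were chosen with earlier results of these data known. The other genes named were the 2 most alike and the 2 most opposed by correlation. None of the identifiers (0) matched the 16199 An. merus genes of the reference table, so lists by gene name and promoters were not used here. A test of the procedure on simulated reads has no outcome reported here, and no result above rests on it. Figures used matplotlib 3.10.9 (Python 3.11.15).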

Additional observations from a re-analysis of the deposited data

Results flagged for a closer look

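The difference between the species in the response at 40% against 10% is listed for all 3 genes because the test of the difference itself passed. It was -2.04 for AGAP004581, -1.43 for AGAP004582 and -1.999 for AGAP004583 on the log2 scale (An. merus minus An. coluzzii; limma adjusted p = 0.017, 0.024 and 0.020). The 3 genes move together and are not 3 independent findings. With 3 libraries a group, no test for outlying pools was made. Dependence on single pools is seen only from leaving out each library in turn.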

How the results depend on the processing

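The number of HSP70 genes called stayed within 1.5 times its main value in all alternatives for 7 of 10 comparisons, where it was 0 throughout or 3 (2 with the filter at a mean of 5 CPM, which removes AGAP004582). At 30% against 10% in An. merus it was 0, and 2 with edgeR, 3 with DESeq2 and 0 to 3 with 1 library left out. At 40% against 30% in An. merus it was 3, and 0 with a pseudocount of 0.1, with the species fitted alone, with edgeR and with DESeq2, and 0 to 3 with 1 library left out. For the difference in response at 40% it was 3, and 1 with edgeR and 1 to 3 with 1 library left out. Where leaving out a library changed a count, the cause was not tested beyond the fewer samples. Signs turned only for changes that passed in no alternative: AGAP004582 at 20% against 10% in An. coluzzii (-0.02; 0.0114 with quantile normalization, 0.10 with edgeR, 0.0642 with DESeq2, -0.23 to 0.20 with 1 library left out), AGAP004581 there (0.17; -0.0579 to 0.39 with 1 library left out), and the difference in response at 30% for AGAP004582 (0.13; -0.0376 with a pseudocount of 0.1, -0.0267 with quantile normalization, -0.48 to 0.79 with 1 library left out), AGAP004581 (-0.41; 0.11 with edgeR, 0.21 with DESeq2, -1.25 to 0.48) and AGAP004583 (-0.35; 0.0878 with edgeR, 0.19 with DESeq2, -1.15 to 0.52). The count over all genes at 30% against 10% in An. merus was 112, and 43 with the species alone, 288 with the 10 to 40% libraries alone, 210 with DESeq2 and 21 to 75 with 1 library left out. At 40% against 30% it was 197, and 77, 392, 340 and 52 to 202 in the same order. At 20% against 10% in An. coluzzii it was 115, and 181 with library totals, 508 with the 10 to 40% libraries alone, 375 with DESeq2 and 13 to 63 with 1 library left out. In An. merus it was 0 at 20% against 10%, and 1 with the 10 to 40% libraries alone or DESeq2. At 50% against 0% a pseudocount of 2 gave log2 changes of 4.58, 2.83 and 4.49 for AGAP004581, AGAP004582 and AGAP004583 in An. merus and 5.305, 3.17 and 4.91 in An. coluzzii, and one of 0.1 gave 5.11 in An. merus and 6.35 in An. coluzzii for AGAP004582. Same-letter libraries deviated together more often than others, with a correlation over 0.1 in 10 of 18 same-letter pairs (median 0.113) and 12 of 36 other pairs (median -0.0456) in An. merus, and 8 of 15 (0.258) and 13 of 39 (-0.0389) in An. coluzzii. Not every same-letter pair passed 0.1. The main tests were unpaired, and a shared effect of the letter was not tested beyond the replicate block. With the replicate block, 3 HSP70 genes were called in each comparison where 3 were called without it, and 0 in the others.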
